A study of Micractinium conductrix and Chlorella sorokiniana with 12 samples.

Results

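Micractinium conductrix was sequenced as 6 RNA libraries of the 12 in the series, 3 from cells grown at pH 5.7 and 3 from cells grown at pH 7.6, and the libraries were chosen by species from their labels. All were made from whole-cell lysates of strain SAG 241.80, an endosymbiont of the ciliate Paramecium bursaria kept in a culture collection, and all cells were grown in modified freshwater SAG medium. The labels give the solid medium on which the strain was kept as pH 7.6 as well, so pH 5.7 was the departure from maintenance conditions. The acidic group holds the libraries numbered 2, 4 and 57, and the near-neutral group those numbered 1, 3 and 76. The other libraries came from Chlorella sorokiniana, a free-living alga with its own table of genes, and enter no result here. The labels are silent on whether replicate libraries stem from separate cultures. The p-values here therefore weigh differences against library-to-library spread, part of which may be technical.

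Micractinium conductrix is a small unicellular green alga that lives inside vacuoles of its ciliate host. Symbiotic algae of this kind are known to release maltose, a sugar built from glucose, when they are placed in acidic medium, and the host takes this sugar up. The title of the series names maltose excretion by a green alga, and the growth pH contrast asks which transcripts of the symbiont differ between an acidic and a near-neutral medium. The table lists genes by running identifiers and pairs them with no name, product, sequence or position. Genes of starch breakdown, sugar export or proton transport could therefore not be picked out. The 2 higher and the 2 lower genes with the largest difference in level are named, and the others are described by their counts, levels and direction.

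The unit is FPKM, fragments scaled to transcript length and to the size of the library, so levels can be compared between genes. The table lists 9349 genes, and tests covered the 8500 whose mean reached 1 FPKM. The 849 genes below that mean were left out, and 174 of these were listed at 0 in every library. Library medians lay between 27.2 and 28.1 FPKM. The absolute depth is unknown, but values of low genes came in steps that give it relative to library 1. Depth was 0.758, 0.509 and 1.66 times that of library 1 in libraries 2, 4 and 57 of pH 5.7, and 1.00, 0.951 and 2.04 times in libraries 1, 3 and 76 of pH 7.6. Library 4 was thus the shallowest and library 76 the deepest, and each pH 5.7 library was shallower than its pH 7.6 partner in the pairs 2 and 1, 4 and 3, and 57 and 76.

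More genes were called lower than higher at pH 5.7, and the largest changes were mostly decreases. By direction alone, without a threshold, 2551 of the 8500 tested genes were higher and 2213 lower at pH 5.7 in all 3 pairs of libraries, so the excess of lower genes belongs to the called genes and to large folds. Without pairing of libraries, 23 genes (0.271% of those tested) were higher and 72 (0.847%) were lower at pH 5.7. A gene counts as called where limma gave it a Benjamini-Hochberg adjusted p below 0.05. With libraries compared within the pairs that their names form, 411 genes (4.84%) were higher and 472 (5.55%) lower, and the same fit without a mean-variance trend called 145 and 248. All 95 genes of the first fit were among the 883 of the second. In the paired fit the excess of lower genes depended on scaling, since equal FPKM totals gave 624 higher and 467 lower genes with a median shift of all genes of 0.06 left in. The unpaired count varied with single libraries. Dropping library 2 left 2 higher and 12 lower genes, and dropping library 4 or library 3 left 4 and 15. Dropping library 57 left 14 and 64, and dropping library 1 left 14 and 55.

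**Figure D1:**
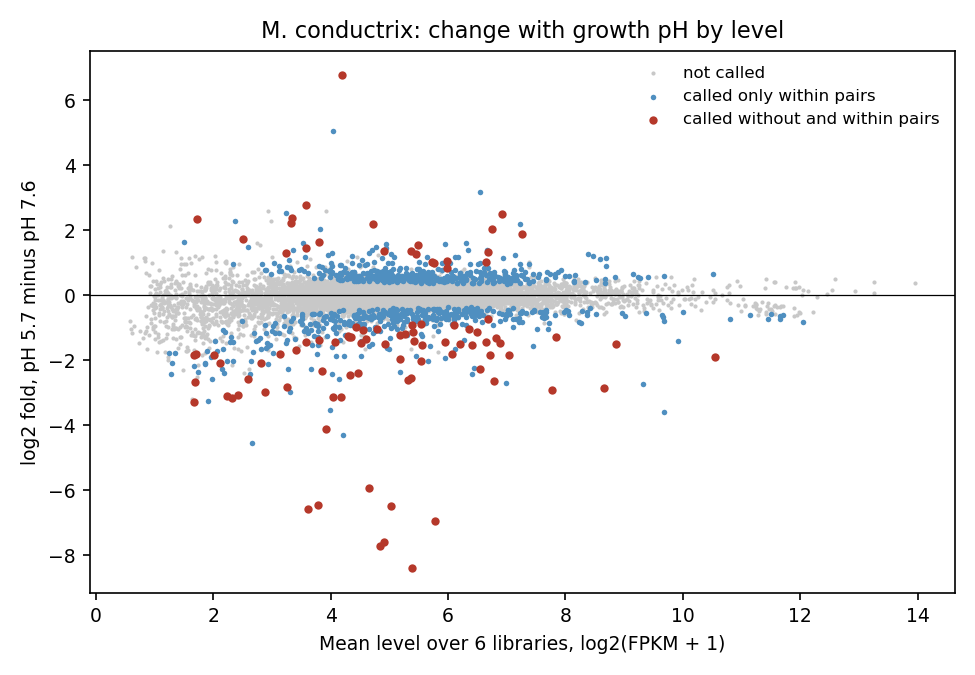
Each point is 1 of 8500 genes. The horizontal axis is the mean of log2(FPKM + 1) over 6 libraries and the vertical axis the log2 fold, pH 5.7 minus pH 7.6; red points are the 95 genes called without pairing, blue points those called only within pairs and grey points the rest. Most red points lie below 0, and 9 of the lower ones changed by at least 4 on the log2 scale, against 1 of the higher ones.

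The lower genes as a group stood above the median gene at pH 7.6 and below it at pH 5.7. The 72 genes lower without pairing had medians of 12.9, 13.7 and 14.6 FPKM at pH 5.7 (libraries 2, 4 and 57), while their medians at pH 7.6 were 62.8, 69.0 and 54.7 FPKM (libraries 1, 3 and 76). The 23 higher genes had medians of 76.3, 70.2 and 63.7 FPKM at pH 5.7, against 27.3, 19.6 and 21.5 FPKM at pH 7.6. All tested genes together had library medians of 31.2 to 32.1 FPKM at pH 5.7 and 31.3 to 31.6 FPKM at pH 7.6. Both sets were chosen on these values, so the medians describe the genes and are no further test.

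Shares of summed FPKM describe the same sets and the wider paired set. All these sets were called on the same values, so the shares are no further test. Summed, the 72 lower genes held 0.349%, 0.371% and 0.336% of all FPKM in libraries 2, 4 and 57, against 1.47%, 1.90% and 1.50% in libraries 1, 3 and 76. The 23 higher genes held 0.280%, 0.272% and 0.249% at pH 5.7, against 0.0741%, 0.0738% and 0.0819% at pH 7.6. In the wider paired set, the 411 higher genes averaged 5.47% ± 0.241 of FPKM at pH 5.7 and 3.23% ± 0.362 at pH 7.6 (SD, n = 3 each). The 472 lower genes averaged 5.60% ± 0.626 at pH 5.7 and 10.4% ± 1.21 at pH 7.6.

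Changes in the paired set were mostly small. The median log2 fold was 0.61 in the higher genes, with quartiles of 0.51 and 0.81, and -0.79 in the lower genes, with quartiles of -1.39 and -0.58. Over all tested genes the median was 0.01 and the quartiles -0.22 and 0.21. Among the higher genes 14 of 411 changed by at least 2 on the log2 scale and 98 by less than 0.5, while among the lower genes 61 of 472 reached 2 and 65 stayed under 0.5. All 3 acidic libraries lay above, or all below, the near-neutral ones in 278 of the 411 higher and 377 of the 472 lower genes, beside 20% of all tested genes. The called genes were chosen on the same values, so their larger shares are no further test.

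Among the genes called without pairing, the largest gain in level belonged to g7141. It stood at 289, 251 and 327 FPKM at pH 5.7 (libraries 2, 4 and 57), whereas pH 7.6 gave 53.4, 48.8 and 47.8 FPKM (libraries 1, 3 and 76). The groups lay far apart and libraries within a group were close, most of all at pH 7.6. Its log2 fold was 2.50 (SE 0.14; limma adjusted p = 0.000713), from 289 ± 38.1 FPKM at pH 5.7 and 50.0 ± 3.00 FPKM at pH 7.6 (SD, n = 3 each). It passed in each of the 28 alternative settings run, with adjusted p between 0.000191 and 0.0255.

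Gene g4962 had the next largest gain. Its values in the same order of libraries were 263, 276 and 359 FPKM at pH 5.7 and 71.1, 60.3 and 113 FPKM at pH 7.6. Libraries 57 and 76 were the highest of their groups, and the groups did not overlap, as in every gene called without pairing. The log2 fold was 1.90 (SE 0.25; limma adjusted p = 0.0249, and 0.00442 within pairs). The call was lost without library 2, 4, 57, 1 or 3, with adjusted p of 0.108, 0.107, 0.0600, 0.0564 and 0.0876, while the fold stayed between 1.72 and 2.16 over all settings.

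The largest loss in level among the same genes was that of g455, an abundant transcript. At pH 5.7 it measured 924, 774 and 656 FPKM (libraries 2, 4 and 57), and at pH 7.6 it measured 2714, 3662 and 2406 FPKM (libraries 1, 3 and 76). Every acidic library was far below every near-neutral one. The log2 fold was -1.89 (SE 0.22; limma adjusted p = 0.0167, and 0.00778 within pairs). Without library 2, 4 or 3 the adjusted p was 0.0607, 0.0951 and 0.0553, and with libraries 1 to 4 alone it was 0.0711.

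Gene g2102 followed, and its fold had the largest SE of the 4 genes. It had 113, 128 and 231 FPKM at pH 5.7 and 577, 1272 and 1685 FPKM at pH 7.6, again in the order of libraries 2, 4 and 57 and of 1, 3 and 76. In each group the order was the same over the pairs, with the members of the pair 57 and 76 highest and those of the pair 2 and 1 lowest. The log2 fold was -2.83 (SE 0.44; limma adjusted p = 0.0341), and within pairs the SE was 0.19 and the adjusted p 0.00510. It missed the threshold with no filter (0.0582), without library 2, 4, 3 or 76 (0.163, 0.147, 0.157 and 0.0831) and with libraries 1 to 4 alone (0.0995).

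**Figure D2:**
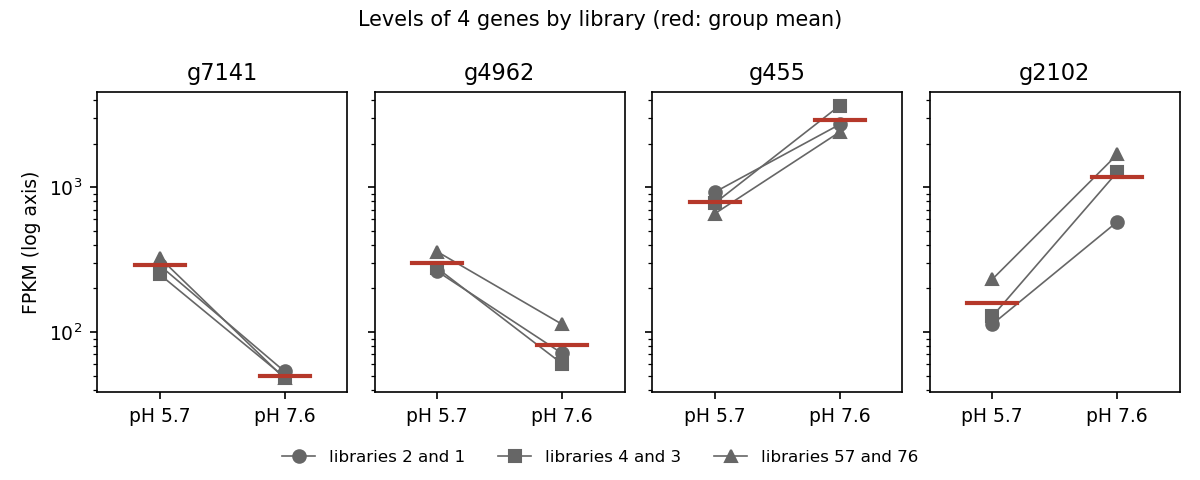
Levels of 4 genes in FPKM on a log axis, pH 5.7 at left and pH 7.6 at right in each panel. Grey points are libraries, and lines join the pairs 2 and 1, 4 and 3, and 57 and 76. Red bars are means of 3 libraries. In all panels the lines run the same way, which the choice of these genes required, and the groups do not overlap. All 23 higher and 72 lower genes called without pairing also lacked overlap, beside 20% of all tested genes.

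Each pair of libraries gave its own measure of the response, and the pairs share no library. At least a doubling at pH 5.7 was seen in 123 genes between libraries 2 and 1, in 158 between libraries 4 and 3 and in 138 between libraries 57 and 76. At least a halving was seen in 285, 492 and 383 genes in the same pairs. Lower genes outnumbered higher ones in every pair at this fold, although the median log2 fold of all genes was 0.03, 0.02 and -0.01. The spread of folds was widest between libraries 4 and 3 (SD 0.66, against 0.56 and 0.60), and library 4 was also the shallowest. The part of depth in this was not tested.

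In all 3 pairs, 31 genes at least doubled and 112 at least halved on the log2(FPKM + 1) scale. Of these, 30 and 108 were called in the paired fit, beside 4.84% higher and 5.55% lower of all tested genes. In the unpaired fit 14 and 54 were called, beside 0.271% and 0.847%. The genes were chosen for large folds alike over the same pairs, so these calls are no further test. Halved genes also outnumbered doubled ones with equal totals (39 doubled and 102 halved), with equal upper quartiles (31 and 116) and among the 7315 genes that averaged 10 FPKM or more (26 and 73). With a pseudocount of 5 FPKM the counts were 19 and 58. Only 22 of 8500 genes doubled in a pair and halved in another, and 0 of these were called within pairs. A paired call favours folds that are alike over the pairs, so the 0 largely follows from the fit.

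**Figure D3:**
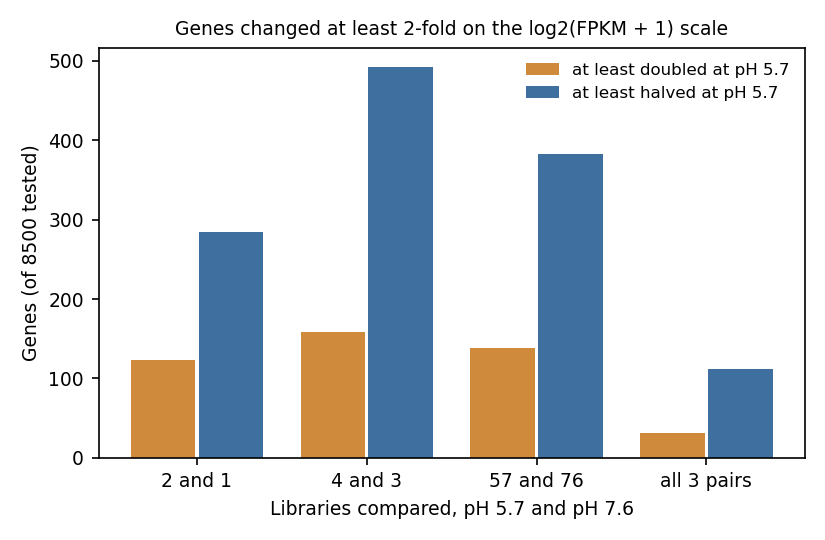
Bars count the tested genes that at least doubled (orange) or at least halved (blue) at pH 5.7 relative to pH 7.6, in each pair of libraries and in all 3 pairs. The blue bars are taller throughout, at 285, 492, 383 and 112 genes, against 123, 158, 138 and 31.

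Across genes, the folds of libraries 4 minus 3 correlated with those of 2 minus 1 (Pearson r = 0.70, Spearman rho = 0.64) and with those of 57 minus 76 (0.71 and 0.63), over 8500 genes. The folds of 2 minus 1 and 57 minus 76 correlated less (0.53 and 0.39). These are correlations across genes, and the genes of a library are not independent replicates. The pair 4 and 3 was thus the closest to both others, and leaving it out of the paired fit reduced the calls to 54 higher and 94 lower genes.

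**Figure D4:**
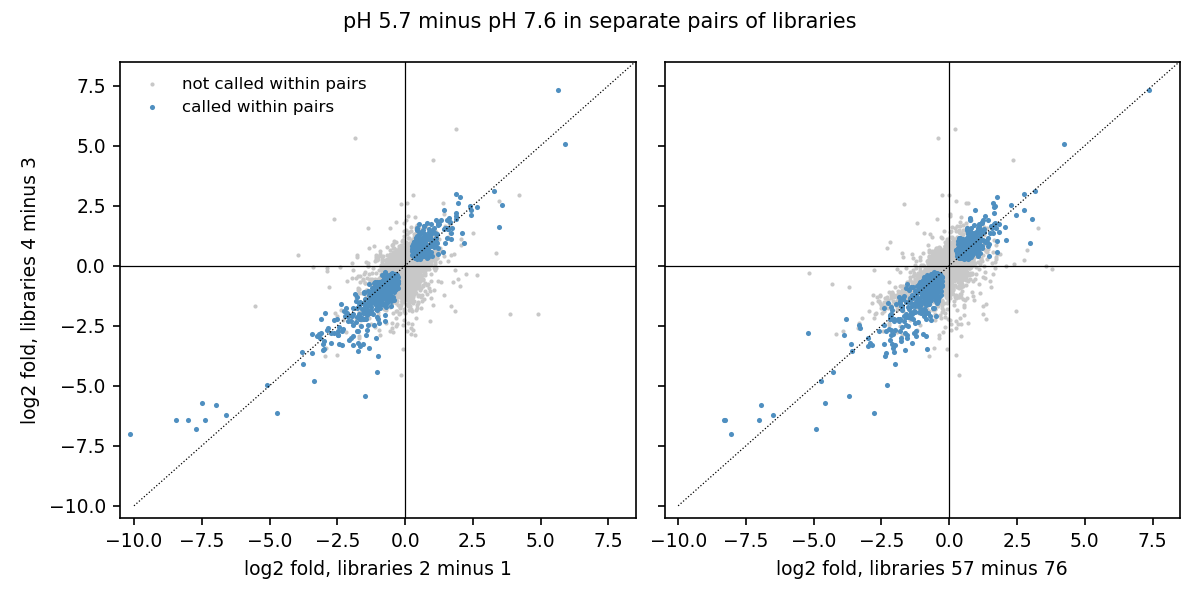
Each point is a gene, with its log2 fold in libraries 4 minus 3 on the vertical axis and in libraries 2 minus 1 (left) or 57 minus 76 (right) on the horizontal axis. Blue points are the 883 genes called within pairs, grey points the rest, and the dotted line marks equal folds. All blue points lie where both folds have the same sign, which a paired call favours. Some genes with large decreases in libraries 4 minus 3 lie far from the dotted line.

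Libraries 57 and 76 carry names of another style, which match the growth pH, and were the deepest in sequence. Whether the pH response differed between them and the numbered libraries was tested with an interaction term. No gene passed (limma, 0 of 8500 at an adjusted p under 0.05, the smallest being 0.753), and 282 genes, or 3.32%, had an unadjusted p under 0.05. The test had 1 library per pH in the pH-named set and 2 residual degrees of freedom, so it shows little about genes with a modest difference. Regardless of pH, 878 genes (10.3%) differed between libraries 57 and 76 and the numbered libraries, 459 higher and 419 lower in 57 and 76 (limma, adjusted p under 0.05, with pH in the model). Of the 883 genes called with pH within pairs, 99 or 11.2% were among these, which is 11.3% of the 878.

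Expression classes gave a view of the response that needs no pseudocount. By group mean, 8447 of 9349 genes stayed in the same class of under 1, 1 to 10, 10 to 100, or 100 FPKM and more. A higher class at pH 5.7 was reached by 338 genes and a lower class by 564. Among moves by a single class, the excess lay across 1 and 10 FPKM. Decreases were not confined to weak genes, since 73 genes halved and 26 doubled in all 3 pairs among those averaging 10 FPKM or more. Between the classes of under 1 and 1 to 10 FPKM, 49 genes were higher and 137 lower at pH 5.7, and between 1 to 10 and 10 to 100 FPKM, 131 were higher and 269 lower. Across 100 FPKM the order was the opposite, with 156 genes higher and 140 lower. These counts carry no test, and the smaller depth of each pH 5.7 library than of its partner moves with the excess across 1 and 10 FPKM. Its part in these counts was not tested.

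Moves by at least 2 classes were rarer and more one-sided. They were seen in 18 genes that were lower at pH 5.7 and in 2 that were higher. The 18 genes had a median of 0.669 FPKM at pH 5.7, from 0.0182 to 4.85, against 87.7 FPKM at pH 7.6, from 10.2 to 894. Of them, 12 were called without pairing and 16 within pairs, beside 0.847% and 5.55% of all tested genes called lower. The 2 genes that moved up averaged 127 and 193 FPKM at pH 5.7, and in the same order 4.51 and 1.33 FPKM at pH 7.6. Both were called within pairs, and 1 without pairing, beside 4.84% and 0.271% of all tested genes called higher. Both sets were chosen for distant group means of the same values, so their calls are no further test. Those averaging under 1 FPKM at pH 5.7 also passed the filter only through pH 7.6.

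A strict switch, with at least 10 FPKM in every library of one pH and under 1 FPKM in every library of the other, was met by 2 genes, both on at pH 7.6 and near absent at pH 5.7. The first was listed at 0 in library 2 and at 0.718 and 0.895 FPKM in libraries 4 and 57, whereas pH 7.6 gave 96.5, 128 and 172 FPKM (libraries 1, 3 and 76). The second had 0.145, 0.356 and 0.269 FPKM at pH 5.7 and 141, 74.6 and 154 FPKM at pH 7.6. The rule chose these genes on the same values, and they passed the filter only through pH 7.6, so they are described without a test. No gene met the rule in the other direction. The count of 2 became 5 without library 4 or without library 1, and 6 without library 76. Without library 1 or without library 76, 1 gene was also on only at pH 5.7.

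Genes listed at 0 throughout one pH were of low level at the other. In all 3 libraries of pH 5.7 but not of pH 7.6, 61 genes were listed at 0, and the highest of these averaged 2.48 FPKM at pH 7.6. The converse held for 39 genes, with at most 0.297 FPKM at pH 5.7. The number of genes listed at 0 was 459, 471 and 282 in libraries 2, 4 and 57, against 372, 378 and 274 in libraries 1, 3 and 76. The counts fell in the exact order of relative depth, from library 4 to library 76, and averaged 404 ± 106 at pH 5.7 and 341 ± 58.4 at pH 7.6 (exact permutation test, two-sided p = 0.4, n = 3 each, where 0.1 is the smallest possible). Within the pairs, the pH 5.7 library had 87, 93 and 8 more genes at 0 than its partner. The number of genes at 1 FPKM or more was 8357 ± 52.3 at pH 5.7 and 8460 ± 53.5 at pH 7.6 (exact permutation test, two-sided p = 0.2, n = 3 each). Within pairs it was lower at pH 5.7 in 3 of 3, with differences of -98, -120 and -91 genes, and the exact sign-flip permutation test over pairs gave 0.25, the smallest p that 3 pairs allow. Each pH 5.7 library was also the shallower of its pair, and the part of depth in this was not tested.

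**Figure D5:**
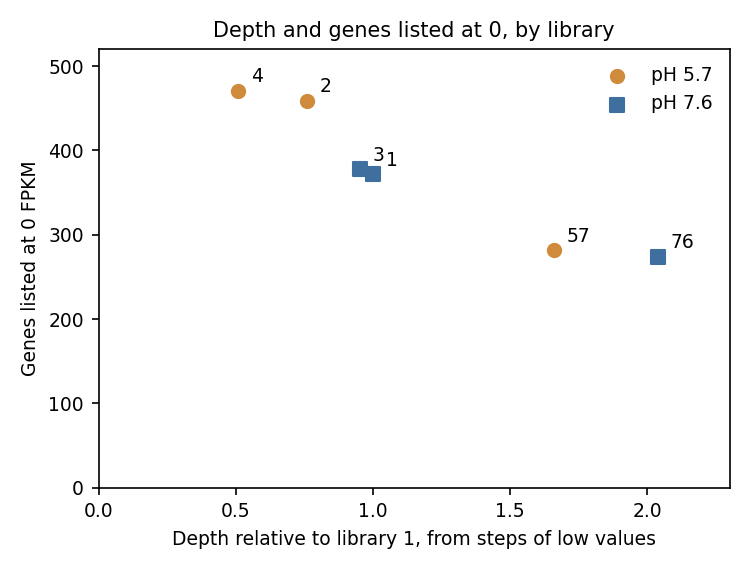
Genes listed at 0 FPKM (vertical axis) against depth relative to library 1 (horizontal axis) in 6 libraries, orange circles for pH 5.7 and blue squares for pH 7.6, with the library numbers beside them. Library 4 has the smallest depth (0.509) and most genes at 0 (471), library 76 the largest depth (2.04) and fewest (274).

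The 101 tested genes that averaged under 1 FPKM at pH 5.7 and the 29 that averaged under 1 FPKM at pH 7.6 passed the filter only through the other pH, so a difference was built into their selection. Of the 101 genes, 9 (8.91%) were lower at pH 5.7 without pairing and 20 (19.8%) within pairs, beside 0.847% and 5.55% of all tested genes. Of the 29 genes, 1 (3.45%) and 2 (6.90%) were higher, beside 0.271% and 4.84%. Nothing is read from these shares, since the filter chose the genes on the same values. The median SD of log2(FPKM + 1) between libraries was 0.22 at pH 5.7 and 0.25 at pH 7.6, and the larger SD was at pH 5.7 in 3623 of 8500 genes.

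The share taken by the dominant transcripts did not differ beyond the spread between libraries. The 50 most abundant genes held 26.1% ± 1.37 of FPKM at pH 5.7 and 26.8% ± 2.03 at pH 7.6 (exact permutation test, two-sided p = 0.7, n = 3 each, where 0.1 is the smallest possible). The pairs 2 and 1, 4 and 3, and 57 and 76 differed by -2.0, -0.5 and 0.3 percentage points (exact sign-flip permutation test, p = 0.5, where 0.25 is the smallest possible). Without pairing limma called 0 of the 50 genes, with 14 at an unadjusted p under 0.05, and within pairs 6 were lower and 0 higher at pH 5.7. Beside this, 13.5% of all tested genes had an unadjusted p under 0.05, and 5.55% and 4.84% were lower and higher within pairs. The paired calls among the 50 genes varied with scaling. Equal totals gave 17 lower and 5 higher, beside 467 and 624 of 8498 tested genes. Equal upper quartiles gave 12 and 0, beside 560 and 402 of 8501. Quantile normalization gave 6 and 4, beside 453 and 453 of 8500. The median log2 fold of the 50 genes was -0.33, beside 0.01 in all tested genes. It was -0.27 beside 0.06 with equal totals, and -0.35 beside -0.01 with equal upper quartiles. Quantile normalization gave -0.04 beside 0.04. Under each scaling 30 of 50 genes were lower.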

How the data were processed

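Poly(A)+ RNA of M. conductrix was sequenced on an Illumina HiSeq instrument, per the labels' protocols. The authors deposited FPKM values, 1 column per library and not pooled. Tools named in the submitters' processing notes are HISAT2, Cuffnorm, Trimmomatic, FastQC and Picard. Settings, genome build, gene models, use of strand and scaling between libraries: not given in the sources used here. Reads shared by paralogs or overlapping genes cannot be judged from FPKM.

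Levels of genes that averaged 1 FPKM or more were tested on the log2(FPKM + 1) scale by limma 3.58.1 in R 4.3.3 (eBayes with a mean-variance trend, two-sided, Benjamini-Hochberg adjustment over all tested genes, threshold 0.05). A fold on this scale understates the change of low genes. Libraries were paired by name (2 with 1, 4 with 3, 57 with 76). The names are the only source of the pairing. Deviations from the group means correlated across genes by 0.60, 0.66 and 0.59 within these pairs. Other pairings were not compared, so these values do not test the pairing. The fit without pairs is the main one. Relative depth is the inverse of the most frequent ratio between libraries among genes under 0.6 FPKM in both, shared by 18 to 38 of 230 to 320 genes within 0.002 on the log2 scale. It assumes that equal fragment counts are the most frequent. Of the 10 library pairs without library 1, 9 had their most frequent ratio at the value these depths give, and in the other it tied with a ratio differing by a factor of 2, at 16 genes each. Named genes are those with the largest difference between group means in FPKM among genes called without pairing that moved alike in all 3 pairs. Other computations used Python 3.11.15 with scipy 1.17.1. The members, lists and tests were chosen with earlier results of these data known.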

Additional observations from a re-analysis of the deposited data

How the results depend on the processing

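In the unpaired fit, the 23 higher and 72 lower genes stayed within 1.5 times under both other pseudocounts, both other filters, 3 scalings, no trend and a required change of 1 on the log2 scale. Sample quality weights gave 81 and 225, naming style as a covariate 76 and 150, and libraries 1 to 4 alone 9 and 40. Over the fits that each dropped 1 library, the higher genes numbered between 2 and 19 and the lower genes between 12 and 64. The replicate block (libraries paired) gave 411 and 472. Combined with the block, no trend gave 145 and 248, quantile normalization 453 and 453, a pseudocount of 0.1 FPKM 421 and 493, one of 5 FPKM 396 and 449, equal totals 624 and 467, and equal upper quartiles 402 and 560. Blocked fits that dropped a pair gave 192 and 386 (libraries 1 and 2 dropped), 54 and 94 (3 and 4) and 219 and 389 (57 and 76). Why the counts moved was not tested, and fits on fewer libraries also had fewer degrees of freedom. The block changed the call of none of the 4 named genes. They were taken from the 95 genes called without it, all of which were also called with it.

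The strict switch was met by 1 gene on at pH 7.6 with 5 and 0.5 FPKM as limits. Dropping 1 library gave 0 to 1 genes on at pH 5.7 and 2 to 6 on at pH 7.6. Genes doubled and halved in all 3 pairs numbered 19 and 58 with a pseudocount of 5 FPKM, and 73 were halved among genes at 10 FPKM or more. The interaction gave 0 genes in its 3 alternatives. The folds of the named genes kept their direction in all 28 settings. This largely follows from their choice by folds alike in all 3 pairs of the same libraries. The fits with naming style, libraries 1 to 4 alone, the block with equal totals or upper quartiles, and the alternatives for doubled and halved genes were added after the data were seen. Because absolute depth is unknown, no counting error can be given for genes near 1 FPKM.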

Other observations

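Called genes with consecutive running numbers were counted, since the table carries no other clue to position. In the paired fit, of the 391 higher genes whose next-numbered gene was tested, 31 (7.93%) were followed by another higher gene, beside 4.84% of all tested genes that were higher, and 17 (4.35%) by a lower gene. Of the 438 such lower genes, 45 (10.3%) were followed by another lower gene, beside 5.55% of all tested genes, and 18 (4.11%) by a higher gene. In the unpaired fit, 0 of 23 such higher genes were followed by another higher gene, beside 0.271% of all tested genes. Of 68 such lower genes, 2 (2.94%) were followed by another lower gene, beside 0.847%. Across genes, the log2 folds of neighbours in number had a Spearman rho of 0.07 over 7940 neighbours, against 0.01 for genes 2 numbers apart and -0.01 for genes 10 apart. The sources used here do not say whether the numbers follow position in the genome, and neighbouring genes can share reads, so the part of either in these shares was not tested.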
